A study of Mus musculus with 12 samples.

Results

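The transcripts of 10 genes, of 55367 distinct symbols in the table, were followed across mouse liver libraries: the nuclear RNAs Malat1 and Neat1, and the mRNAs of Ccnl1, Ccnl2, Leng8, Fam193b, Ogt, Prpf4b, Ccnt2 and Clk1. They were chosen by their own measured levels, because they were low together in some of these libraries, so those levels and the group difference of the members are given as a description, with no p-value. The study set 6 livers of severe acute pancreatitis (SAP), treated with caerulein, against 6 control livers. All were wild-type Balb/c mice aged 6 weeks. Caerulein overstimulates the pancreas and is a standard inducer of pancreatitis; the liver is a distant organ in that model. The series text speaks of a pair of models, and the labels do not say which SAP library would belong to which, nor that each library came from a separate mouse, so a p-value here measures library-to-library spread, which may be technical. All 10 members were found, each in 1 row only, and all 10 passed the filter on low values (at least 1 TPM in at least 6 libraries).

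Malat1 and Neat1 are long noncoding RNAs that stay in the nucleus. Malat1 collects at nuclear speckles, where splicing factors are stored, and Neat1 is the scaffold of paraspeckles, bodies that hold certain RNAs and RNA-binding proteins. Several of the other genes make proteins that act on the splicing or transcription machinery, and some, such as Clk1 and Ogt, are known to keep part of their RNA in the nucleus with an intron still in place, which is spliced when more protein is needed. A gene's TPM, a transcript abundance corrected for length and for the library's total, does not separate spliced from intron-holding RNA.

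Malat1 and Neat1 are neighbours on chromosome 19 of GRCm38, 22035 bases apart, both on the minus strand (GENCODE M21: Malat1 at chr19:5795690-5802672, Neat1 at chr19:5824708-5845478). Malat1 and the long isoform of Neat1 are known to end in a triple helix, made of a genome-encoded A-rich tract and U-rich stretches before it, in place of an ordinary poly(A) tail. The short isoform of Neat1 ends upstream and carries such a tail, and the gene's TPM does not separate the isoforms. The 110 bases that end with the tract are shown because they stand in the place of a poly(A) tail. They are given 5′ to 3′ as DNA from the GENCODE transcript of each gene that spans it whole. Capitals mark TTTTGCTTTT, found in both, and the closing run of A with GCAAAA.
Malat1, chr19:5795982-5796091: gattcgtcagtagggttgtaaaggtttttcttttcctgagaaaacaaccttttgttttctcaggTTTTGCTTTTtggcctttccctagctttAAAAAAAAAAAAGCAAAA
Neat1, chr19:5824708-5824817: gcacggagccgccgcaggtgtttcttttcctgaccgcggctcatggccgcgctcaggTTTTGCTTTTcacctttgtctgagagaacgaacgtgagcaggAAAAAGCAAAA
This Neat1 transcript, the long isoform with 20771 bases, ends at this tract in the annotation, while that of Malat1, with 6983 bases, runs on for 292 more.

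Promoters were looked at because the members moved together. RefSeq windows on GRCm38.p6, which reach from upstream of a gene's start to just past it, matched 8 of the 10 members with 10 windows, all but Neat1 and Clk1. The 6 bases TGACGT, the core of a cAMP response element, were searched on both strands and stood in windows of 4 members, Malat1, Ccnl1, Ccnl2 and Leng8. Counted by window, the 6 bases stood in 4 of the 10 member windows, beside 7.51% of all 32851 windows of this length and 11.6% of the 11113 windows of tested genes. Capitals mark them; in Ccnl1 the matches on both strands overlap and form TGACGTCA.
Malat1, minus strand, chr19:5802623-5802922: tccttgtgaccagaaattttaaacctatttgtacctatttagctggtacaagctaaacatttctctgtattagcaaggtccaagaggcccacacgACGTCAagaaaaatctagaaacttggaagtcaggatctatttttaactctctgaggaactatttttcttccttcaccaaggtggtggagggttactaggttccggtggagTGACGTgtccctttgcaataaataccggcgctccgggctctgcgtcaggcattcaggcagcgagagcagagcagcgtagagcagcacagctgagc
Ccnl1, minus strand, chr3:65958200-65958499: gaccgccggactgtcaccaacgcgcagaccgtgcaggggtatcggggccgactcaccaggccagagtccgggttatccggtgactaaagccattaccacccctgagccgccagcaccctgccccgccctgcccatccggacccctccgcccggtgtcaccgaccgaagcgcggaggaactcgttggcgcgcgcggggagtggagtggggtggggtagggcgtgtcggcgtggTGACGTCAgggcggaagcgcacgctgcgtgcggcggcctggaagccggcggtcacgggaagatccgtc
Ccnl2, plus strand, chr4:155812239-155812538: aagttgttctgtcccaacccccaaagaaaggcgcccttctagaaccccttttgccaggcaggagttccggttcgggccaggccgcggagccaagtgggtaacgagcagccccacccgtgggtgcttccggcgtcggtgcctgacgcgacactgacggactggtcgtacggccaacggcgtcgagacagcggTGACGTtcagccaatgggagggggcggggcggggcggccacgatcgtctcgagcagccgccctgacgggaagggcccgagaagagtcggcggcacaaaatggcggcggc
Leng8, plus strand, chr7:4136806-4137105: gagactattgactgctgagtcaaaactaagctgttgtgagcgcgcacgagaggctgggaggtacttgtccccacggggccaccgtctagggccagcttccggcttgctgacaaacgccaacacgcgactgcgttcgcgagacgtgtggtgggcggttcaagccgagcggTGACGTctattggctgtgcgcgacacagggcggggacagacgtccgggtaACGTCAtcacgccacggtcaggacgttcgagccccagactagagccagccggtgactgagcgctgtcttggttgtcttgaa
Of the other letters searched on both strands, CCGGAA stood in 7 of the 10 member windows (27.7% of windows of tested genes), GGGCGG in 8 (61.1%), CCAAT in 4 (37.9%), GCATGCG in 2 (6.29%) and TATAAA in 0 (7.86%). The windows of Ogt overlap, and the same CCGGAA match was counted in both. By gene, CCGGAA and GGGCGG each stood in windows of 6 of the 8 members. The motifs were picked after the windows had been read, and a match is a description of the letters only.

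Transcript classes in GENCODE M21 were not among the measured values that chose the members. The members are grouped as nuclear and splicing-regulated transcripts, however, so a tally of retained introns is not independent of that grouping and is a description. Each of the 8 coding members has at least 1 annotated transcript that keeps an intron, against 6272 of 10370 other tested protein-coding genes (60.5%). Clk1 has 7 such transcripts of 13, Ccnl1 8 of 14, Ccnt2 and Fam193b 4 each, Ccnl2, Leng8 and Ogt 3 each and Prpf4b 2 of 10. Over the 8 genes, retained-intron transcripts made up 34 of 74 (45.9%), against 25.0% of the transcripts of the other genes. Of the 258 other coding genes with the members' 5 lowest libraries, described further on, 202 (78.3%) had such a transcript, and 33.2% of their transcripts were of this class. Transcripts annotated for nonsense-mediated decay, the route that removes RNAs with an early stop codon, were listed for 4 of the 8, against 29.8% of the other genes. The members also have more annotated transcripts in all, a median of 9 against 5. Malat1 and Neat1 have 4 noncoding transcripts each. The coding members lie apart from each other on GRCm38: Ccnl1 at chr3:65946151-65958249 (minus strand), Ccnl2 at chr4:155812489-155824543 (plus), Leng8 at chr7:4137039-4148177 (plus) and Ogt at chrX:101640060-101684351 (plus). Fam193b at chr13:55539316-55571120 (minus) shares a chromosome with Prpf4b at chr13:34875302-34906064 (plus), and Ccnt2 at chr1:127774164-127808061 (plus) with Clk1 at chr1:58410189-58424066 (minus).

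**Figure D1:**
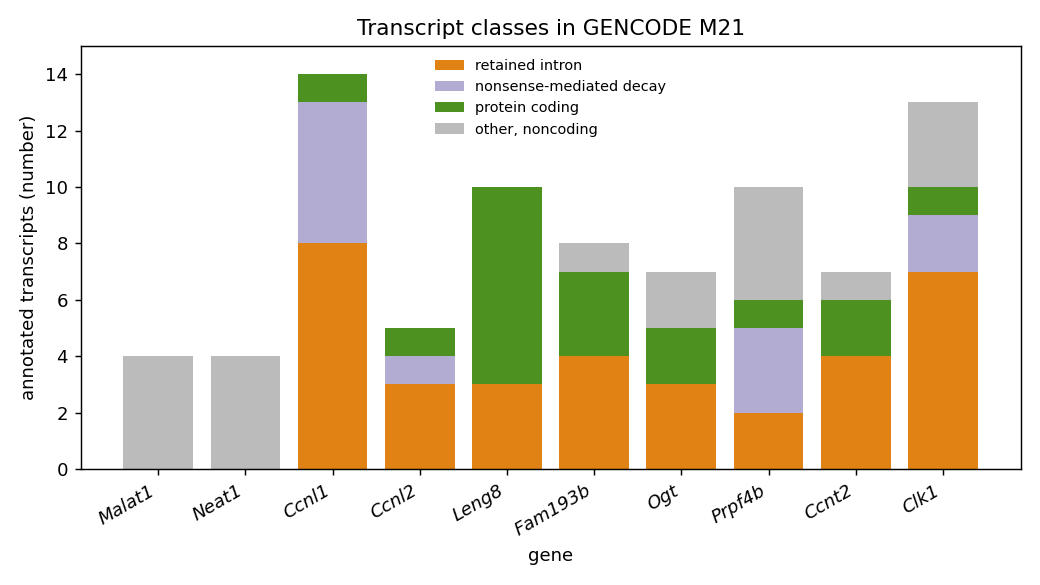
Number of transcripts annotated for each member in GENCODE M21 (vertical axis, stacked by class) for the 10 genes (horizontal axis). All 8 coding members have an orange retained-intron part, the tallest in Ccnl1 with 8 of 14 transcripts.

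The libraries did not fall apart by group alone. SAP 11, SAP 13, SAP 14, SAP 15 and control 5 stood apart from the other 7 libraries, SAP 10, SAP 12 and the other 5 controls, in the level of every member, and values are given with and without them below. The 5 were set apart by the members' own low values, and 4 of them are SAP. Leaving them out therefore raises a member's SAP minus control difference and narrows its SE by the choice itself. Only 2 SAP libraries then remain. Measures of the whole library are given beside the split of 5 and 7 libraries, and not all of them followed it. The acute-phase genes took 27.6 ± 5.13% of all TPM in SAP and 3.72 ± 0.24% in controls (SD, n = 6 each). Their share overlapped across the split, with 23.3 to 36.6% in the 4 low SAP libraries, against 22.4 to 29.5% in SAP 10 and SAP 12. Control 5, at 3.60%, lay within the other controls' 3.46 to 4.01%. TPM is a share of a fixed total, so a larger part taken by the acute-phase genes leaves less for all others. The transcripts of 89 ribosomal protein genes took 4.37 to 4.94% in the 4 low SAP libraries, against 4.05 to 4.40% in SAP 10 and SAP 12, and 3.97% in control 5, against 3.19 to 3.75% in the other controls. Between 10810 and 11445 genes reached 1 TPM in the 4 low SAP libraries, against 11680 to 11718 in SAP 10 and SAP 12. In control 5 the number was 11223, against 11289 to 11527 in the other controls. Inside each group this measure thus followed the split. Mitochondrially encoded transcripts took 4.56 to 6.44% in the 4 low SAP libraries, against 6.20 to 6.70% in SAP 10 and SAP 12. They took 6.52% in control 5, against 6.80 to 7.90% in the other controls. The part of these measures in the members' levels was not tested. Hepatocyte markers summed to 50110 to 69340 TPM in SAP and 112900 to 124500 TPM in controls (8 of 8 found), with ranges of 50110 to 123200 TPM in the 5 libraries and 52510 to 124500 TPM in the 7, and none of the markers of 8 cell types was at 0 in every library. Leukocyte markers summed to 72.4 to 148 TPM in SAP and 38.7 to 66.4 TPM in controls, with 59.1 to 148 TPM in the 5 libraries and 38.7 to 138 TPM in the 7 (8 of 8 found). Kupffer cell markers (5 of 5 found) summed to 62.1 to 152 TPM in SAP and 104 to 170 TPM in controls, with 62.1 to 140 TPM in the 5 libraries and 104 to 170 TPM in the 7. Red blood cell markers (5 of 5 found) summed to 341 to 716 TPM in SAP and 607 to 5292 TPM in controls, with 390 to 661 TPM in the 5 libraries and 341 to 5292 TPM in the 7, and 5 of 5 were called lower in SAP (limma). The sums of sinusoidal endothelium (80.1 to 111 TPM in SAP, 73.4 to 108 TPM in controls), stellate cell (99.8 to 128 TPM in SAP, 100.4 to 121 TPM in controls) and cholangiocyte markers (1.67 to 4.09 TPM in SAP, 2.28 to 3.45 TPM in controls) overlapped between the groups. Pancreatic acinar markers summed to 0.56 to 1.16 TPM in SAP and 0.60 to 11.97 TPM in controls. A sum can hide opposite calls. In the limma fit 1 of 8 hepatocyte markers was called higher and 5 lower, and 4 of 6 tested leukocyte markers higher and 1 lower. Of 5 each, 3 Kupffer cell markers were lower, 2 endothelium markers higher, and 3 stellate cell markers higher and 1 lower. Of all tested genes 19.5% were called higher and 25.0% lower. Whether these cell types bear on the members was not tested. In whole tissue, fewer cells of a type and less RNA per cell cannot be told apart. Depth is unknown, since TPM does not keep it.

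Malat1 reached 2.76, 7.95 and 40.1 TPM in SAP livers (lowest, median, highest), against 7.24, 31.5 and 39.9 TPM in controls. The SAP range held all of the control values. SAP 10 and SAP 12, with 37.2 and 40.1 TPM, lay in the upper part of the other controls' range of 26.2 to 39.9 TPM or just above it, while the 4 low SAP libraries stood at 2.76 to 8.19 TPM, and control 5 stood at 7.24 TPM. No library lay between 8.19 and 26.2 TPM, a gap of 3.20-fold and the widest of any member. The mean log2 difference, SAP minus control on the log2(TPM + 1) scale used for all differences here, was -1.29 ± 0.63 (SE). Without the 5 low libraries it was 0.21 ± 0.18 (SE, 2 SAP and 5 control libraries).

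Neat1 was listed at 2.41, 7.41 and 14.15 TPM in SAP livers (lowest, median, highest), against 3.97, 20.7 and 28.0 TPM in controls. Its split was less wide: SAP 11 came to 9.98 TPM and SAP 12, the lowest of the other 7 libraries, to 12.0 TPM. Here SAP 10 and SAP 12, at 14.15 and 12.0 TPM, also lay below each of the other 5 controls, which ran from 17.7 to 28.0 TPM. The SAP minus control difference was -1.24 ± 0.46 (SE) with all libraries and -0.72 ± 0.17 without the 5 low ones. Among the low libraries the SAP values, 9.98, 4.84, 2.41 and 3.38 TPM, lay on both sides of control 5 at 3.97 TPM.

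**Figure D2:**
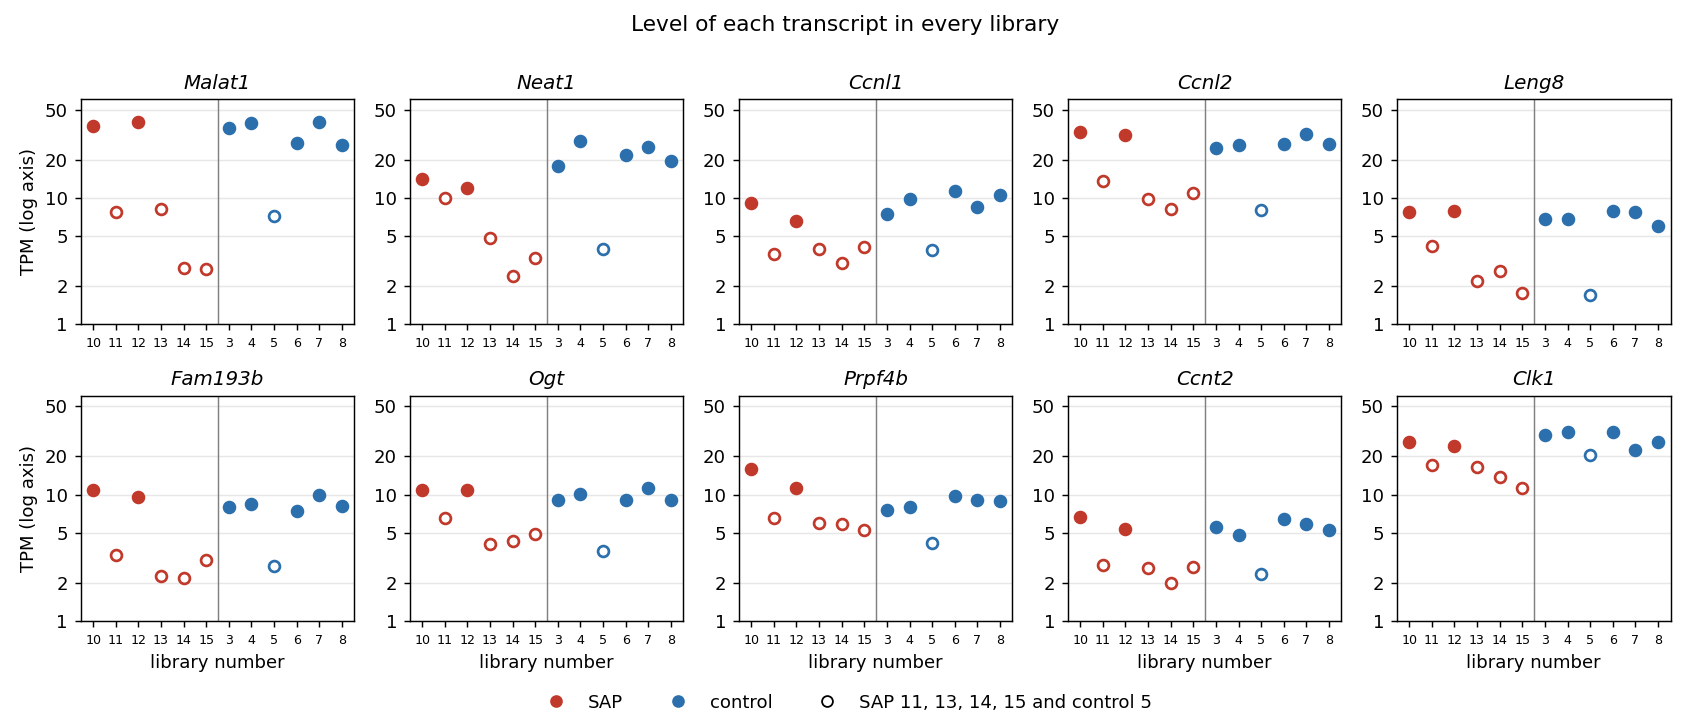
TPM of each of the 10 members (log axis) in the 6 SAP libraries (red, left) and the 6 control libraries (blue, right), each point 1 library, with open points for SAP 11, SAP 13, SAP 14, SAP 15 and control 5. In every panel the 5 open points lie below the 7 filled ones, from 3.20-fold apart for Malat1 to 1.09-fold for Clk1.

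Ccnl1 and Ccnl2 encode the L-type cyclins, which sit in nuclear speckles and partner CDK11 kinases in splicing. Ccnl2 had 8.13, 12.3 and 33.3 TPM in SAP livers (lowest, median, highest), against 8.02, 26.4 and 31.75 TPM in controls. SAP 10 and SAP 12, with 33.3 and 31.4 TPM, were close to or above the highest control. The difference was -0.51 ± 0.38 (SE) with all libraries and 0.25 ± 0.10 without the 5 low ones, a change of sign. Without control 5 alone it was -0.78. Its relative Ccnl1 had 3.06, 4.02 and 9.07 TPM in SAP livers (lowest, median, highest), against 3.90, 9.16 and 11.3 TPM in controls. Its difference was -0.68 ± 0.25, and -0.26 ± 0.17 without the 5 libraries. Here SAP 10, at 9.07 TPM, lay among the other controls of 7.45 to 11.3 TPM, and SAP 12, at 6.56 TPM, below them.

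Ccnt2 encodes cyclin T2, a partner of CDK9 in the kinase that releases paused RNA polymerase II. It was the least abundant member, with 2.0, 2.73 and 6.62 TPM in SAP livers (lowest, median, highest), against 2.34, 5.39 and 6.42 TPM in controls. Its difference of -0.41 ± 0.24 (SE) became 0.09 ± 0.13 without the 5 libraries.

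Clk1 and Prpf4b encode kinases of the splicing machinery. Clk1 phosphorylates SR proteins, and Prpf4b acts on the spliceosome before its activation. Clk1 had 11.2, 16.9 and 25.9 TPM in SAP livers (lowest, median, highest), against 20.6, 27.8 and 31.4 TPM in controls. It showed the narrowest gap, 1.09-fold, between control 5 at 20.6 TPM and control 7 at 22.3 TPM. The Clk1 difference was -0.58 ± 0.18 (SE), and -0.16 ± 0.14 without the 5 libraries. Prpf4b had 5.22, 6.24 and 16.0 TPM in SAP livers (lowest, median, highest), against 4.15, 8.38 and 9.74 TPM in controls. It was the member with a positive difference, 0.03 ± 0.25 over all libraries, and 0.59 ± 0.15 without the 5. Its sign turned when SAP 10 (-0.16), SAP 12 (-0.07) or control 5 (-0.12) was left out. SAP 10 and SAP 12, at 16.0 and 11.2 TPM, were above every control, and the 4 low SAP libraries, at 5.22 to 6.55 TPM, were each above control 5 at 4.15 TPM.

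Ogt encodes the single enzyme that adds O-GlcNAc, a sugar mark, to nuclear and cytosolic proteins. It had 4.06, 5.69 and 10.85 TPM in SAP livers (lowest, median, highest), against 3.58, 9.04 and 11.25 TPM in controls. The difference was -0.32 ± 0.27 (SE), 0.15 ± 0.11 without the 5 libraries, and 0.04 ± 0.27 when TPM was rescaled to the total outside the acute-phase genes, so its sign depended on both choices. It was -0.52 without control 5 alone and -0.21 without SAP 13 alone. Leng8 had 1.78, 3.43 and 7.83 TPM in SAP livers (lowest, median, highest), against 1.71, 6.80 and 7.88 TPM in controls, a difference of -0.46 ± 0.35 and 0.13 ± 0.11 without the 5. Without control 5 alone the Leng8 difference was -0.72, and without SAP 15 alone -0.30. Fam193b had 2.17, 3.17 and 10.85 TPM in SAP livers (lowest, median, highest), against 2.70, 7.97 and 9.98 TPM in controls. Its gap of 2.25-fold between the 5 and the 7 libraries came second to that of Malat1, and its difference was -0.59 ± 0.37 with all libraries and 0.26 ± 0.12 without the 5.

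Over the 10 members the median difference was -0.55, beside -0.03 over all 11344 tested genes. Without the 5 libraries it was 0.14, beside 0.05 over all tested genes, and 7 of the 10 members had a positive difference where 9 had a negative one before. An upward shift is built into leaving out libraries set apart by the members' low values, 4 of them SAP, so nothing is read from that turn. In the limma fit 3 members, Neat1, Ccnl1 and Clk1, were past the Benjamini-Hochberg threshold of 0.05 as lower in SAP, where 25.0% of all tested genes were called lower, and 0 were past it as higher, where 19.5% were called higher. Since these libraries chose the members, nothing is read from that count. For 0 of the 10 did SAP and control values lie apart without overlap. With TPM rescaled to the total outside the acute-phase genes, the median of all tested genes moved by 0.36 to 0.33, 8 of 10 members had a negative difference, and 6412 genes were called higher and 1220 lower, against 2211 and 2832 as deposited.

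**Figure D3:**
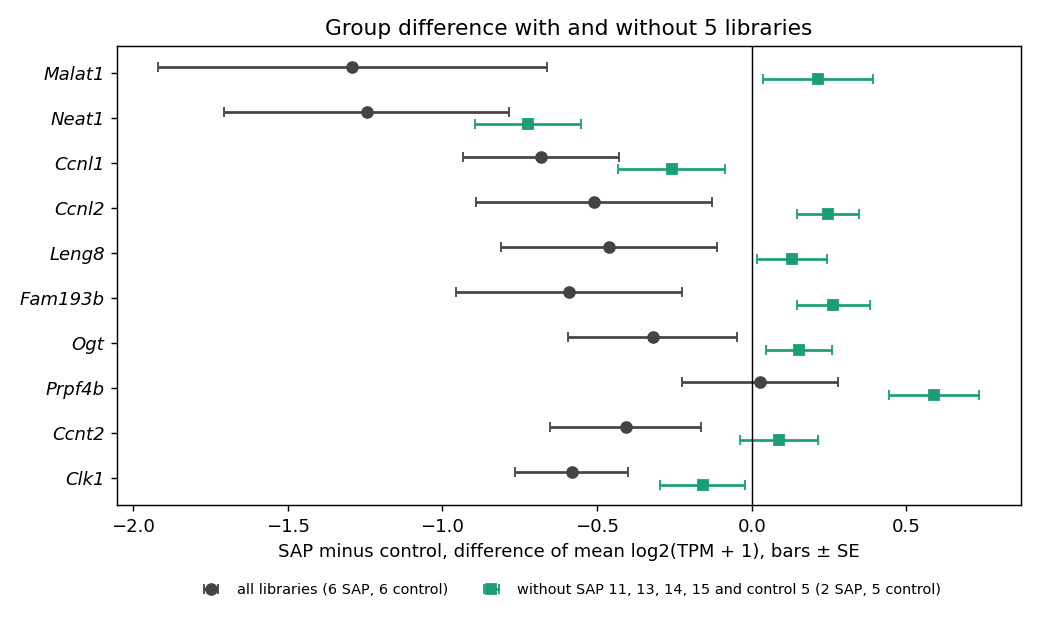
SAP minus control difference of mean log2(TPM + 1) with its SE (horizontal axis) for the 10 members, from all libraries (circles, 6 SAP and 6 control) and without SAP 11, SAP 13, SAP 14, SAP 15 and control 5 (squares, 2 SAP and 5 control). Of the circles 9 lie left of 0, and 7 squares lie right of it; Neat1 stays at -0.72.

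Ranked by mean TPM, which is corrected for length, SAP livers had Clk1 (18.1 ± 5.73), Ccnl2 (17.9 ± 11.4) and Malat1 (16.5 ± 17.4) at the top, and controls had Malat1 (29.3 ± 12.2), Clk1 (26.9 ± 4.67) and Ccnl2 (24.0 ± 8.18; SD, n = 6 each). In both groups these 3 differed by less than the SD of Malat1. Neat1 averaged 7.80 ± 4.91 TPM in SAP and 19.4 ± 8.44 TPM in controls (SD, n = 6 each); Prpf4b stood above it in SAP, and none of the other 6 did in controls. The other 6 members ran from 3.68 TPM for Ccnt2 to 8.46 TPM for Prpf4b in SAP and from 5.02 TPM for Ccnt2 to 8.67 TPM for Ogt in controls. Their neighbours in that order did not differ beyond their SDs, which reached 4.28 TPM in SAP and 2.69 TPM in controls. The places of Malat1 and Neat1 among the mRNAs are uncertain. Malat1 and the long Neat1 isoform lack an ordinary poly(A) tail, and no source used here says whether RNA was selected by that tail. The TPM of Neat1 also mixes its isoforms.

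The spread inside the groups was wide for every member. The within-group SD of log2(TPM + 1) was 1.25 for Malat1, 0.92 for Neat1, 0.76 for Ccnl2 and 0.36 for Clk1, the smallest. Set among the 500 tested genes on each side of its own mean level, each member had an SD above that of at least 91.1% of them, the value for Clk1, and up to 99.6% for Malat1. The members were chosen for low levels in libraries of both groups, which by itself gives a wide spread inside each group, so these ranks describe the choice.

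All 10 members had the same 5 lowest libraries, with no overlap with the other 7. Among all tested genes 337 (2.97%) showed this, and 18 (0.16%) showed the mirror image, with the same 5 libraries highest. Because the members were chosen for being low together, their count says nothing beyond the choice. What the libraries do within the split is a separate point. Within the 7 other libraries, with the mean of each group among them subtracted, the 45 pairs of members had a median Pearson r of 0.28, from -0.76 for Ccnl2 and Clk1 to 0.87, and 15 pairs were negative. These are descriptions over 7 libraries that share their normalization. Across all 12 libraries no pooled r between members is given, since the libraries fall into separate clusters.

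The genes most like the members were found by Pearson r over the 12 libraries between a gene's log2(TPM + 1) and the mean standardised level of the 10 members, each with its own group's mean subtracted, among 7437 other genes with a mean of at least 5 TPM. These r are descriptions without a p, and the split of the libraries enters each of them. The highest was Xist (0.98), the nuclear RNA that coats the inactive X chromosome, with 4.59 to 17.1 TPM in the 5 low libraries and 49.1 to 60.7 TPM in the 7. Firre (0.96), another X-linked nuclear RNA, had 1.18 to 3.79 TPM in the 5 and 8.12 to 11.8 TPM in the 7. The labels do not give the sex of the animals, and its part in the levels of Xist and Firre was not tested. Among coding genes were Pnisr (0.96), which encodes a protein rich in serine and arginine, with 1.44 to 2.75 TPM against 6.15 to 10.7 TPM, and Luc7l2 (0.95), a factor of the U1 splicing particle, with 14.7 to 21.8 TPM against 24.6 to 30.1 TPM. Ddx5 (0.95), an RNA helicase of splicing, had 68.7 to 102 TPM in the 5 and 99.1 to 156 TPM in the 7, so its ranges touched. The others were Klc1 (0.97; a kinesin light chain), Tbce (0.96; a tubulin chaperone), Pan2 (0.95; a poly(A)-shortening enzyme), the pseudogene Mug-ps1 (0.96) and the antisense transcript Gm47738 (0.97). In all 45 genes had an r above 0.9.

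The genes most opposite to the members were Ndufa4 (-0.94; a small mitochondrial protein), Rpl31-ps8 (-0.93; a ribosomal pseudogene), Rpl23a (-0.91) and Rpl36al (-0.90), which encode ribosomal proteins, and the cyclophilin gene Ppia (-0.91). All 5 were abundant, and their ranges were narrower: Rpl23a had 990 to 1129 TPM in the 5 low libraries and 743 to 921 TPM in the 7. Ndufa4 stood at 838 TPM in control 5, with the other controls between 694 and 709 TPM, and 5 genes in all had an r under -0.9. Reads of a ribosomal pseudogene and its parent cannot be told apart here, as no source used here says how shared reads were counted.

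**Figure D4:**
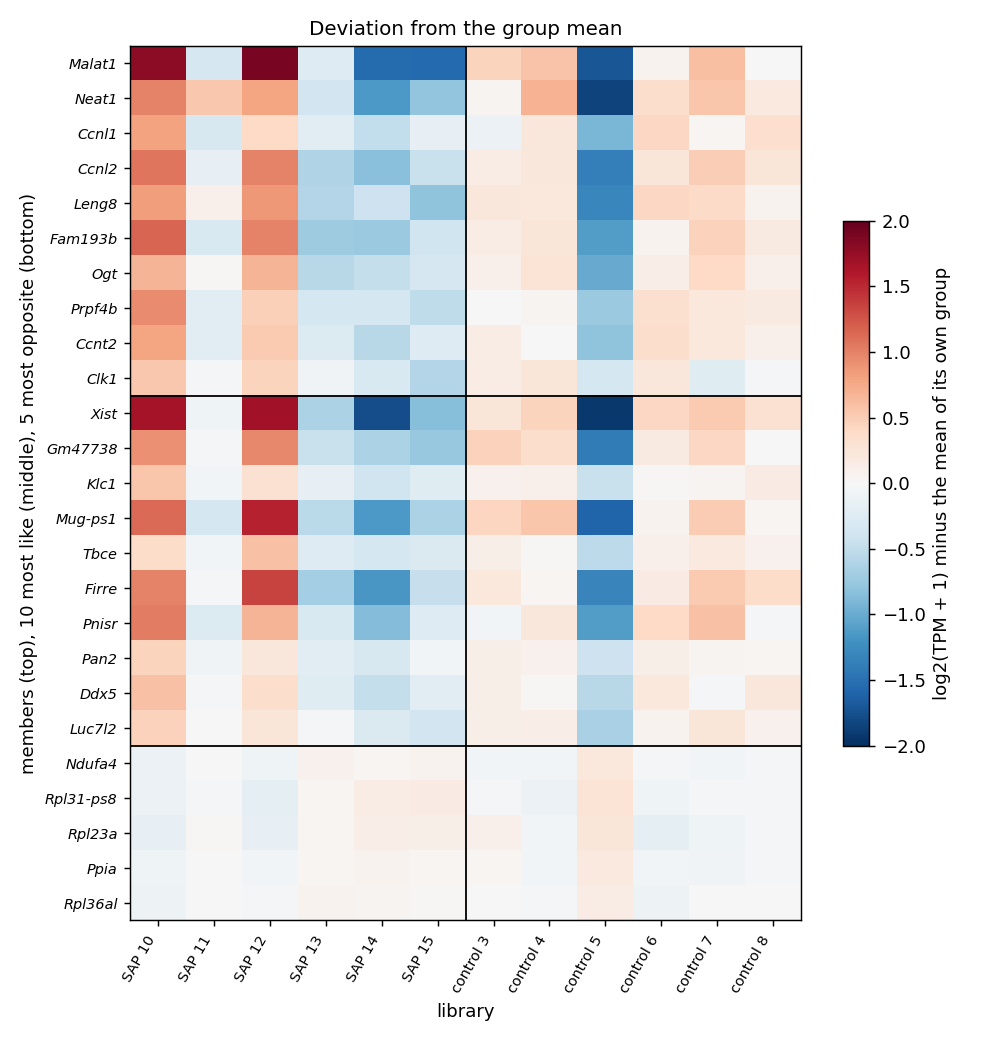
Deviation of log2(TPM + 1) from the mean of its own group (color) in the 12 libraries (columns, SAP left) for the 10 members, the 10 genes most like them and the 5 most opposite (rows). SAP 10 and SAP 12 are red and control 5 is blue in the members and the genes like them, and the 5 opposite genes are pale, with control 5 slightly red.

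The wider nuclear RNA machinery was tested in the same fit, with 139 genes of 7 lists that leave the members out. Of these 22 rose and 18 fell, and 99 did not pass (limma, Benjamini-Hochberg adjusted p under 0.05), and their median difference was -0.02. That is 15.8% called higher and 12.9% called lower, beside 19.5% and 25.0% of all tested genes. Without the 5 low libraries 21 were higher and 7 lower. With 2 SAP and 5 control libraries left, a call can end there without a smaller difference. With TPM rescaled to the total outside the acute-phase genes, 74 were higher and 1 lower.

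Proteins of the paraspeckle, the body built on Neat1, were called in both directions. Of 19, 2 rose (10.5%) and 4 fell (21.1%) while 13 did not pass, shares that lie under those of all tested genes, and the median was -0.04. Dazap1, an RNA-binding protein, fell to 27.8 ± 7.73 TPM in SAP, against 47.4 ± 9.33 TPM in controls (SD, n = 6 each; log2 difference -0.76, limma adjusted p = 0.00341). Nono, a core paraspeckle protein, fell by 0.36 (limma adjusted p = 0.00217), while the cleavage factor gene Cpsf6 rose by 0.50 (limma adjusted p = 2.60e-04). Dazap1, Nono and Cpsf6 were also past the threshold without the 5 low libraries. After rescaling outside the acute-phase genes Dazap1 was at -0.36 and Nono at 0.04, neither past the threshold.

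Among SR proteins and nuclear speckle factors, the splicing regulators that Clk1 and its relatives act on, 1 of 32 rose and 7 fell while 24 did not pass, and the median was -0.14. The 7 are 21.9% of the list, near the 25.0% of all tested genes. Without the 5 low libraries 3 were higher and 3 lower and the median was 0.09, beside 0.05 over all tested genes. Leaving out libraries set apart by the members' low values favours a rise of genes that follow the members. Nothing is read from that turn of the list's median. The genes called higher without the 5 libraries were Srrm2, Son and Prpf38b, which encode speckle and splicing proteins, at 0.44, 0.42 and 0.45 (limma adjusted p = 0.0148, 0.0127 and 0.0175). They were picked out after their values were seen, and with all libraries they were at 0.25, 0.02 and 0.23 and did not pass (limma adjusted p = 0.365, 0.923 and 0.121). Their levels followed those of the members (r = 0.92, 0.94 and 0.82), so the choice of libraries favours their rise in that fit. Rsrp1, which encodes an arginine- and serine-rich protein, fell most clearly, to 66.9 ± 12.7 TPM in SAP, against 159 ± 21.6 TPM in controls (SD, n = 6 each; log2 difference -1.25 ± 0.12 SE, limma adjusted p = 3.41e-06). It was also lower without the 5 libraries (-0.95, limma adjusted p = 0.00165) and after the rescaling (-0.84). Srsf4 fell by 0.54, Srsf3 by 0.48 and U2af1, a subunit of the factor that reads the 3′ splice site, by 0.33 (limma adjusted p = 0.00347, 0.00198 and 0.00128). Srsf3 was not past the threshold without the 5 libraries (limma adjusted p = 0.101), and none of Srsf3, Srsf4 and U2af1 was after the rescaling, where U2af1 was at 0.08. U2af1 was also not past it with quantile normalization (limma adjusted p = 0.249). Srsf5, named here after its values were seen, had 14.1 to 58.8 TPM in SAP and 33.6 to 78.2 TPM in controls, and fell by 1.01 (limma adjusted p = 0.0152; 0.133 without the 5 libraries).

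In this list 7 of 32 genes had the members' 5 lowest libraries with no overlap, beside 2.97% of all tested genes: Srsf2, Srsf5, Srsf11, Rbm25, Luc7l2, Srek1 and Sf3b1. Rbm25 had 8.91 to 12.1 TPM in the 5 and 13.5 to 18.8 TPM in the 7, and Srsf2 had 33.8 to 45.9 TPM against 56.8 to 65.2 TPM. Except for Srsf5, these genes were not past the threshold between SAP and control. The lists were chosen with this pattern known, so the count is a description. In the other lists the count was 2 of 25 for RNA decay and export (Zfc3h1 and Pabpn1, parts of a nuclear decay pathway for polyadenylated RNA), 2 of 22 for long noncoding RNAs (Xist and Firre) and 1 each of 19, 18, 7 and 16 for paraspeckle proteins (Dazap1), kinases and cyclins (Clk4, a close relative of Clk1), O-GlcNAc genes (Oga) and RNAs without a poly(A) tail (H4c14).

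**Figure D5:**
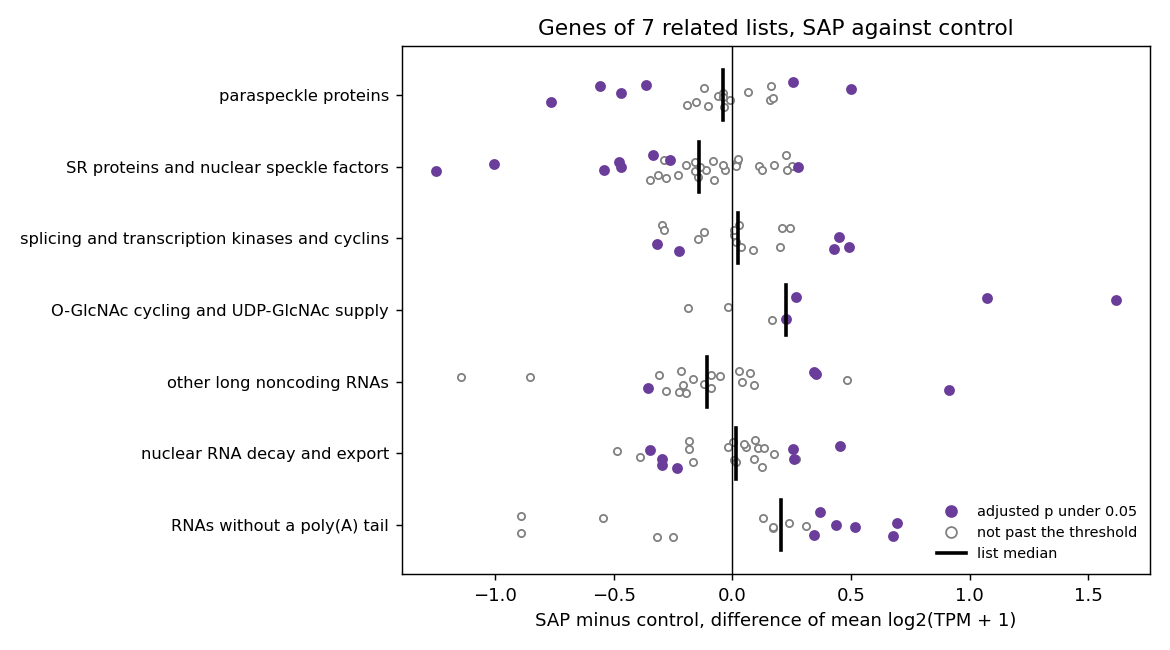
SAP minus control difference of mean log2(TPM + 1) (horizontal axis) for each tested gene of 7 lists (rows), filled where the limma adjusted p was under 0.05, with a bar at the list's median. Filled points lie on both sides of 0 for 5 lists, and to the right alone for the O-GlcNAc genes and the RNAs without a poly(A) tail; Pgm3 lies farthest right at 1.62 and Rsrp1 farthest left at -1.25.

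Of 18 kinases and cyclins of splicing and transcription, 3 rose and 2 fell while 13 did not pass, and the median was 0.02. Cdk9, the partner of cyclin T, rose to 24.6 ± 3.19 TPM in SAP, against 17.1 ± 1.25 TPM in controls (SD, n = 6 each; log2 difference 0.49, limma adjusted p = 5.36e-04; 0.0505 without the 5 libraries). Supt5, an elongation factor that the Cdk9 kinase acts on, rose by 0.45 and Cdk7 by 0.43 (limma adjusted p = 0.00104 and 0.0179), Cdk7 not past the threshold without the 5 libraries (limma adjusted p = 0.233). Ccnh, cyclin H, fell by 0.32 (limma adjusted p = 0.0332). Its difference was -0.35 without the 5 libraries (limma adjusted p = 0.129) and 0.07 after the rescaling. Its call also ended without any 1 of 7 libraries (SAP 10, SAP 13, SAP 15, control 5, control 6, control 7 or control 8; limma adjusted p up to 0.0757), and with quantile or TMM-like scaling. Clk4, with 10.1 to 25.6 TPM in SAP and 11.9 to 20.5 TPM in controls, was not past the threshold.

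Around Ogt, Pgm3 and Gfpt1, enzymes that make its sugar donor UDP-GlcNAc, were higher. Of 7 genes 4 rose (57.1%, beside 19.5% of all tested genes) and 0 fell while 3 did not pass, and the median was 0.22. Without the 5 low libraries 2 were called higher, Pgm3 and Gfpt1. Pgm3, an enzyme of the middle of that route, rose to 29.1 ± 3.69 TPM in SAP, against 8.75 ± 0.51 TPM in controls (SD, n = 6 each; log2 difference 1.62 ± 0.09 SE, limma adjusted p = 1.83e-08). Gfpt1, the rate-limiting first enzyme, rose to 12.5 ± 3.71 TPM, against 5.21 ± 0.12 TPM in controls (SD, n = 6 each; log2 difference 1.07, limma adjusted p = 1.23e-04). Without the 5 libraries Pgm3 was at 1.61 and Gfpt1 at 0.94. Nagk and Gnpnat1 rose by 0.27 and 0.22 (limma adjusted p = 0.0313 and 0.0265). Without the 5 libraries they stood at 0.28 and 0.12, neither past the threshold (limma adjusted p = 0.124 and 0.309). Leaving out 1 library also ended the call for Nagk with any of 7 libraries (SAP 10, SAP 11, SAP 12, control 4, control 5, control 6 or control 7; limma adjusted p up to 0.0713) and for Gnpnat1 with any of 4 (SAP 11, control 3, control 4 or control 6; up to 0.0619). Oga, which removes the mark that Ogt adds, was at 7.20 to 15.5 TPM in SAP and 11.0 to 14.1 TPM in controls, and was not past the threshold.

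Other long noncoding RNAs did not share one direction. Of 22, 3 rose and 1 fell while 18 did not pass; the median was -0.11, and the 11 not tested reached at most 1.05 TPM. Snhg18 rose to 2.48 ± 0.54 TPM in SAP, against 0.86 ± 0.38 TPM in controls (SD, n = 6 each; log2 difference 0.91, limma adjusted p = 1.77e-04). Gas5, a host of small nucleolar RNAs, rose by 0.34 and Tug1 by 0.35 (limma adjusted p = 0.00629 and 0.00738), and Snhg18, Gas5 and Tug1 were also past the threshold without the 5 libraries. Tug1 followed the members in part (r = 0.69), so the choice of libraries favours its rise in that fit, where it was at 0.56. Snhg6 fell by 0.35 (limma adjusted p = 0.0197), and was not past the threshold without the 5 libraries (limma adjusted p = 0.248) or after the rescaling. Xist, with a difference of -1.14 ± 0.60 (SE), and Firre, with -0.85 ± 0.43, were not past it (limma adjusted p = 0.141 and 0.121). Without the 5 libraries they stood at 0.15 and 0.05. Both followed the members closely (r = 0.98 and 0.96), so the choice of libraries builds in that shift.

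In nuclear RNA decay and export 3 of 25 genes rose and 4 fell while 18 did not pass, and the median was 0.01. Nxt1, a cofactor of mRNA export, rose by 0.45, the exosome subunit gene Exosc4 by 0.26 and Rbm7, part of a nuclear exosome adaptor, by 0.25 (limma adjusted p = 0.00472, 0.00158 and 0.00629). Nxt1 was at 0.50 without the 5 libraries, not past the threshold (limma adjusted p = 0.0690). Thoc5, of the export complex THO, fell by 0.30 (limma adjusted p = 0.0163) and was at 0.08 after the rescaling.

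RNAs that usually lack a poly(A) tail, which include most histone mRNAs, were looked at beside Malat1. Of 16, 6 rose (37.5%, beside 19.5% of all tested genes) and 0 fell while 10 did not pass, and the median was 0.21. Rn7s1 and Rn7s2, copies of the signal recognition particle RNA, hold identical values in every library, so the list holds 15 separate signals, of which 9 did not pass, with a median of 0.24. The 17 not tested reached at most 74.4 TPM in a library. The histone gene H3c15 rose by 0.69, H1f2 by 0.52, H2aw by 0.37 and H2bc4 by 0.35 (limma adjusted p = 1.80e-04, 0.00413, 0.0117 and 0.00281), and all 4 were past the threshold without the 5 libraries. The choice of libraries favours a rise in that fit for a gene that follows the members. Their r with the members was 0.50 for H2bc4, 0.32 for H1f2 and 0.04 for H3c15. Histone genes are near-identical copies, so their single levels are uncertain. With that pair counted once, the summed level of the genes found was 394 to 577 TPM in SAP and 373 to 597 TPM in controls, with 394 to 577 TPM in the 5 low libraries and 373 to 597 TPM in the 7. The sum thus overlapped across the split that Malat1 showed.

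Annotated genes overlap 5 of the members. Neat1 holds short noncoding entries on its own strand of up to 21.9 TPM in a library, Leng9 overlaps Leng8 by 263 bases on the other strand at 0.27 to 2.67 TPM, and the entries over Malat1, Ccnl1 and Prpf4b reached at most 0.60 TPM. No source used here says whether counting used strand, so reads in these stretches cannot be told apart.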

How the data were processed

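RNA-seq of frozen liver was deposited as 1 table with 55487 rows, 12 sample columns and a gene symbol. The authors' deposited values are taken to be TPM: each library sums to 993412 to 995793 with no common step, and no header or label names the unit. Per the labels' protocols, RNA came from Trizol extraction and standard Illumina libraries; no source used here names poly(A) selection, an aligner, a build or strand. The submitters' processing notes list edgeR without saying what for. TPM keeps no depth, so no counting interval was computed.

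The row with the highest median kept a shared symbol (120 rows repeat one). The log2(TPM + 1) values of 11344 genes that reached 1 TPM in 6 or more libraries were fitted with limma 3.58.1 (R 4.3.3, trended prior), SAP minus control, two-sided, Benjamini-Hochberg at 0.05. A fold change on this scale understates changes of low genes. For 5 library measures SAP and control were compared by an exact permutation test, two-sided (scipy 1.17.1; smallest possible p = 0.00216). Of the measures, the acute-phase share (p = 0.00216, adjusted p = 0.0054) and the ribosomal protein share (p = 0.00216, adjusted p = 0.0054) were at that smallest value, the mitochondrially encoded share had p = 0.00433 (adjusted p = 0.00722), genes at 1 TPM p = 0.950 and RNAs without a poly(A) tail p = 0.929 (exact permutation, adjusted p = 0.950 for both). Counting the identical Rn7s1 and Rn7s2 once, an alternative chosen after seeing the data, gave exact permutation p = 0.232 for the last, unadjusted.

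The members and lists were chosen with earlier results of these data known. The genes named are the members, the 4 tested entries of each list with the smallest adjusted p, the 10 genes most like the members and the 5 most opposite; Srsf5, Srrm2, Son, Prpf38b and genes named for their low libraries were added after their values were seen. A gene that this rule names is not reported here. List symbols were matched by name or RefSeq synonym. The pipeline was tested on simulated data for SAP against control in 11344 genes: 40 of 67 genes changed by 0.5 (log2), 64 of 67 changed by 1 and 66 of 66 changed by 2 were called, with 15 false calls among 11144, and 0 calls with no change. The simulated noise was separate for each gene and library. It holds no split of libraries shared by many genes, so these rates need not apply to genes that show the split. Alternatives were quantile and TMM-like scaling, rescaling outside 26 acute-phase genes, other filters, a pseudocount of 0.1, no trend, a robust fit, the highest mean for shared symbols and leaving out libraries; without the 5 low libraries, a gene had to reach 1 TPM in at least 4. Figures were drawn with matplotlib 3.10.9.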

Additional observations from a re-analysis of the deposited data

Results flagged for a closer look

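A gap test of each group of 6 libraries, on 53 named genes and 5 library measures, marked 13 of 116 groups in which 1 library lay far from the others; chance marks about 1 in 20. In 11 of the 13 that library was control 5. All 11 fall on members or on genes picked for their likeness or opposition to them, so the choice of genes fixed that number, and it is not set against chance. Among the members, control 5 was low for Ccnl2 (8.02 TPM, others 24.9 to 31.75), Leng8 (1.71 TPM, others 5.99 to 7.88), Fam193b (2.70 TPM, others 7.44 to 9.98) and Ogt (3.58 TPM, others 8.97 to 11.25). Among genes like the members it was low for Xist (10.15 TPM, others 49.1 to 59.9), Klc1 (5.17 TPM, others 7.57 to 8.44), Tbce (11.6 TPM, others 17.3 to 19.7), Pan2 (4.15 TPM, others 6.08 to 6.49) and Luc7l2 (14.7 TPM, others 24.6 to 28.1). It was high for Ndufa4 (838 TPM, others 694 to 709) and Rpl31-ps8 (446 TPM, others 339 to 363). Control 3 was low for Cdk7 (4.69 TPM, others 6.49 to 7.25) and high for Nagk (20.1 TPM, others 13.4 to 15.7). No SAP library was marked. The cause was not tested.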

How the results depend on the processing

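Over 139 listed genes, 22 higher and 18 lower became 34 higher with quantile normalization, 74 higher and 1 lower after rescaling outside the acute-phase genes, 11 lower with no filter, and 7 lower without the 5 low libraries. Over all genes, 2211 higher and 2832 lower became 6412 and 1220 after that rescaling, which moved the median of all genes by 0.36, and 1847 lower without the 5 libraries. The members' median of -0.55 became 0.14 (0.1415 on the log2 scale) without the 5 libraries, an upward shift that this choice of libraries builds in. Nono (0.0416), U2af1 (0.0755), Ccnh (0.0664) and Thoc5 (0.0804) changed sign after the rescaling. Leaving out each library in turn gave 1894 to 2390 higher and 2497 to 3042 lower genes, 19 to 26 and 13 to 24 listed genes, a member median of -0.75 to -0.41, and a Prpf4b difference of -0.16 to 0.13. Under the other settings, no trend, robust, pseudocount 0.1, mean of at least 5 TPM, TMM-like scaling, highest mean, and without SAP 14 and control 5, these counts stayed within 1.5 times. Without SAP 14 and control 5 the Malat1 difference was -1.32 and that of Prpf4b -0.05. Ccnt2 was not tested at a mean of at least 5 TPM. Counting Rn7s1 and Rn7s2 once, chosen after seeing the data, gave a mean summed level of RNAs without a poly(A) tail of 521 TPM in SAP and 467 TPM in controls, where counting both gave 561 TPM in SAP and 551 TPM in controls, with no call either way. No paired analysis was possible because SAP and control share no replicate numbers. Unknown depth limits low genes most.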
